A study of Mus musculus with 58 samples.

Results

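The lysosomal genes described here encode the hydrolases that break down protein, glycan, sulfated sugar and lipid inside the lysosome, together with its activator proteins, sterol carriers and membrane proteins. They were taken as a list of 45 gene symbols, and 44 of them were found among the 31246 genes of each regional table. *Tfeb*, a transcription factor for lysosomal genes, was listed too and was not analysed here. The tables came from RNA-sequencing of 2 cortical regions, the entorhinal cortex (EC) and primary visual cortex (PVC), of male *APOE* targeted replacement mice aged 14 to 15 months, with 58 libraries in all. Mouse *Apoe* is replaced by human *APOE* under the mouse promoter in this strain, so every animal, controls included, carried human *APOE* and no mouse *Apoe*. Each region had 29 libraries, 10 from *APOE3/3* and 19 from *APOE3/4* mice, and both regions had the same 29 animal numbers. The value used was the authors' mean normalised count of a gene over all 29 libraries of a region, with both genotypes pooled. Such a mean has no spread over mice and cannot show a difference between genotypes. Neither an SD nor a test is given, and all values are descriptions. A genotype difference present only in the EC or only in the PVC would be part of any comparison of the regions, and its share cannot be told.

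Lysosomal hydrolases are made in the endoplasmic reticulum, tagged with mannose 6-phosphate in the Golgi and delivered through endosomes to the lysosome, where an acid lumen activates them. Many of the genes share a short promoter element, the CLEAR element, which is bound by *Tfeb* and its relatives and has an E-box with the letters CACGTG at its centre. In the brain these genes are known for the lysosomal storage diseases that follow loss of a single enzyme, and for their part in the turnover of membrane and of endocytosed material in neurons and microglia.

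The E-box was looked for on both strands (CACGTG reads the same on each) in windows of 300 bases, from 250 bases before to 50 bases after the transcript start, taken from RefSeq on GRCm38.p6. A window was given for 38 of the 44 genes, and 13 of these (34.2%) held at least 1 E-box. Of all 27025 genes with a window 8.09% held one, and of the 10898 genes with a window that were past the minimum mean used below 11.2% did. The longer form TCACGTGA, of which the E-box is the middle, stood in 5 of the 38 (13.2%) and in 1.12% of all genes with a window. Printed here are the stretch of *Lamp1*, with the most E-boxes, a pair from *Mcoln1*, and 1 copy of the longer form from each of the other genes that held it. *Ctsd* and *Gla* also held 2 E-boxes in the window, of which 1 is shown. *Ctsa* and *Cln3* had 2 windows each and 2 matches over both windows, of which 1 is shown. They are written 5′ to 3′ on the strand of the gene, with each E-box in capitals, and were placed on NCBIM37 (mm9), the build of the tables, by an exact and single match.
*Lamp1*, chr8:13159091-13159151, + strand: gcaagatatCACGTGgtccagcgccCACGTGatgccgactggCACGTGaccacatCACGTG
*Mcoln1*, chr8:3500439-3500483, + strand: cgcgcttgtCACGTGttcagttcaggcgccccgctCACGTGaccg
*Gla*, chrX:131135722-131135751, - strand: gtgagatctcggtCACGTGagcaactctcg
*Ctsd*, chr7:149573813-149573842, - strand: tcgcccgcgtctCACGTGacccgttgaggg
*Cln3*, chr7:133726854-133726883, - strand: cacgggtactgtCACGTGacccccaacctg
*Ctsa*, chr2:164659243-164659272, + strand: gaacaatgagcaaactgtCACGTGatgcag

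The stretch of *Lamp1*, which encodes the main glycoprotein of the lysosomal membrane, held 4 E-boxes with their first bases 61, 45, 28 and 15 bases before the RefSeq start. *Mcoln1*, a calcium channel of the same membrane, held 2, and the second of these had the longer form. *Gla* had 2 copies of the longer form within the window. *Ctsa* had 2 matches to the longer form over its 2 windows, which may be 1 site read from 2 starts. In GENCODE vM1 the stretches of *Ctsd*, *Cln3* and *Ctsa* lie within exons of those genes, that of *Gla* lies within an exon of the neighbouring gene *Hnrnph2*, and 17 bases of the *Lamp1* and 27 bases of the *Mcoln1* stretch are exonic. By role, an E-box stood in 4 of 9 protease genes, 4 of 11 genes of glycan enzymes, 2 of 4 sulfatase genes and 3 of 6 membrane protein genes. None was found in the windows of 5 genes of lipid enzymes and 3 of activators and sterol carriers, which says only that these letters are not in those windows.

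**Figure D1:**
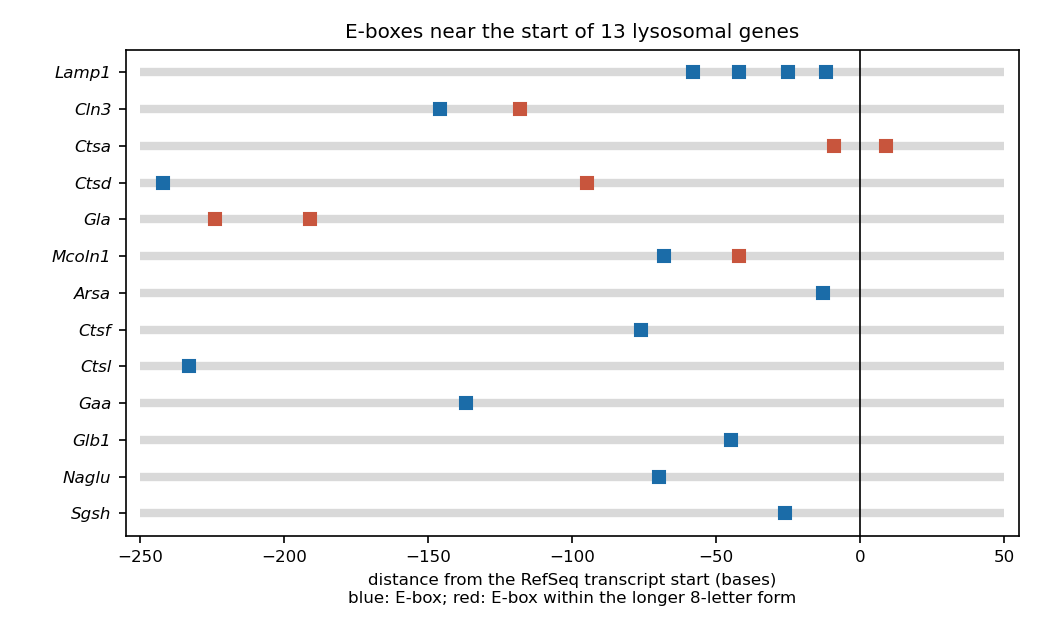
Positions of the E-box in the windows of the 13 lysosomal genes that held one, in bases from the RefSeq transcript start. Each gene has 1 grey bar, and matches from all windows of a gene are drawn on it. Squares are E-boxes, red where the longer form is present, and *Lamp1* has 4 squares within 61 bases of the start.

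Levels were compared between genes after division by the exon length of the gene in GENCODE vM1, as mean normalised counts per kilobase within 1 region. Most of the genes were measured well above the middle of the transcriptome. The median level of the 44 genes was 667 per kilobase in the EC and 353 in the PVC, and that of all genes past the minimum mean was 282 and 154. In the EC 33 of the 44 stood above the median of all genes, and in the PVC 34 did. All 44 passed the minimum, a mean of 10 over the regional means. Their sum was 0.572% of all normalised counts of the EC and 0.539% of those of the PVC. The scales of the regional tables differ, since each region was normalised on its own, and the median ratio of EC to PVC over all genes was 1.87.

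*Psap*, the precursor of the saposins that present sphingolipids to their hydrolases, had by far the highest level of the 44 genes. Its level was 33132 per kilobase in the EC and 17088 in the PVC, and it alone made up 32.0% of the normalised counts of the 44 genes in each region. *Psap* lies on chromosome 10 from 59740375 to 59765345 (NCBIM37, + strand). Next in the EC was *Ids*, which removes sulfate from heparan and dermatan sulfate, at 8159 per kilobase. *Ctsd*, the main aspartic protease of the lysosome, followed at 5703, then *Lamp1* at 5523. In the PVC the order after *Psap* was *Ids* at 3330, the cysteine protease *Ctsb* at 3135, *Ctsd* at 3130 and *Lamp1* at 3030 per kilobase, values too close together for an order to be read from pooled means. The lowest levels belonged to *Ctsc*, with 75.6 per kilobase in the EC and 27.6 in the PVC, to *Sgsh*, with 84.3 and 36.2, and to *Manba*, with 95.7 and 55.7. *Ctsc* is a dipeptidyl peptidase that activates granule proteases, *Sgsh* removes N-linked sulfate from heparan sulfate and *Manba* is a mannosidase.

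Within the proteases the levels ran from *Ctsc* to *Ctsd* in the EC. The cysteine proteases *Ctss* and *Ctsl* stood at 1988 and 1825 per kilobase there, *Ctsf* at 1444, and *Tpp1*, the tripeptidyl peptidase lost in a form of neuronal ceroid lipofuscinosis, at 1139. Below these came *Ctsa*, which protects the galactosidase and the sialidase, at 1002, then *Ctsz* at 862, *Ctso* at 321 and *Ctsh* at 121 per kilobase. Among the glycan enzymes *Gaa*, which degrades glycogen, was highest with 4101 per kilobase in the EC, and *Hexa*, a subunit of the enzyme that degrades GM2 ganglioside, had 1358. The mannosidase *Man2b1*, the sialidase *Neu1* and the galactosidase *Glb1* lay between 589 and 771. *Fuca1*, *Idua*, *Gla*, *Naglu*, *Gusb*, *Aga* and *Manba* lay between 95.7 and 352 in the EC, and 6 of these 7 were below the median of all genes.

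The sulfatases spanned from *Sgsh* at 84.3 to *Ids* at 8159 per kilobase in the EC. *Arsb* stood at 1034, *Arsa*, which degrades the myelin lipid sulfatide, at 565 and *Galns* at 237. Of the lipid enzymes the sphingomyelinase *Smpd1* was highest with 1989 per kilobase, and the acid lipase *Lipa* lowest with 303. The thioesterase *Ppt1* had 1394, the ceramidase *Asah1* 743, the phospholipase *Pla2g15* 536 and *Galc*, which degrades galactosylceramide of myelin, 462. Beside *Psap*, the sterol carriers *Npc2* and *Npc1* had 694 and 325 per kilobase and the GM2 activator *Gm2a* had 568. The membrane proteins ran from *Lamp1* at 5523 down to *Cln3*, a protein lost in juvenile ceroid lipofuscinosis, at 119.7, with *Scarb2*, the receptor that carries glucocerebrosidase to the lysosome, at 1803, the tetraspanin *Cd63* at 1615, *Mcoln1* at 999 and *Lamp2* at 410.2 per kilobase.

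**Figure D2:**
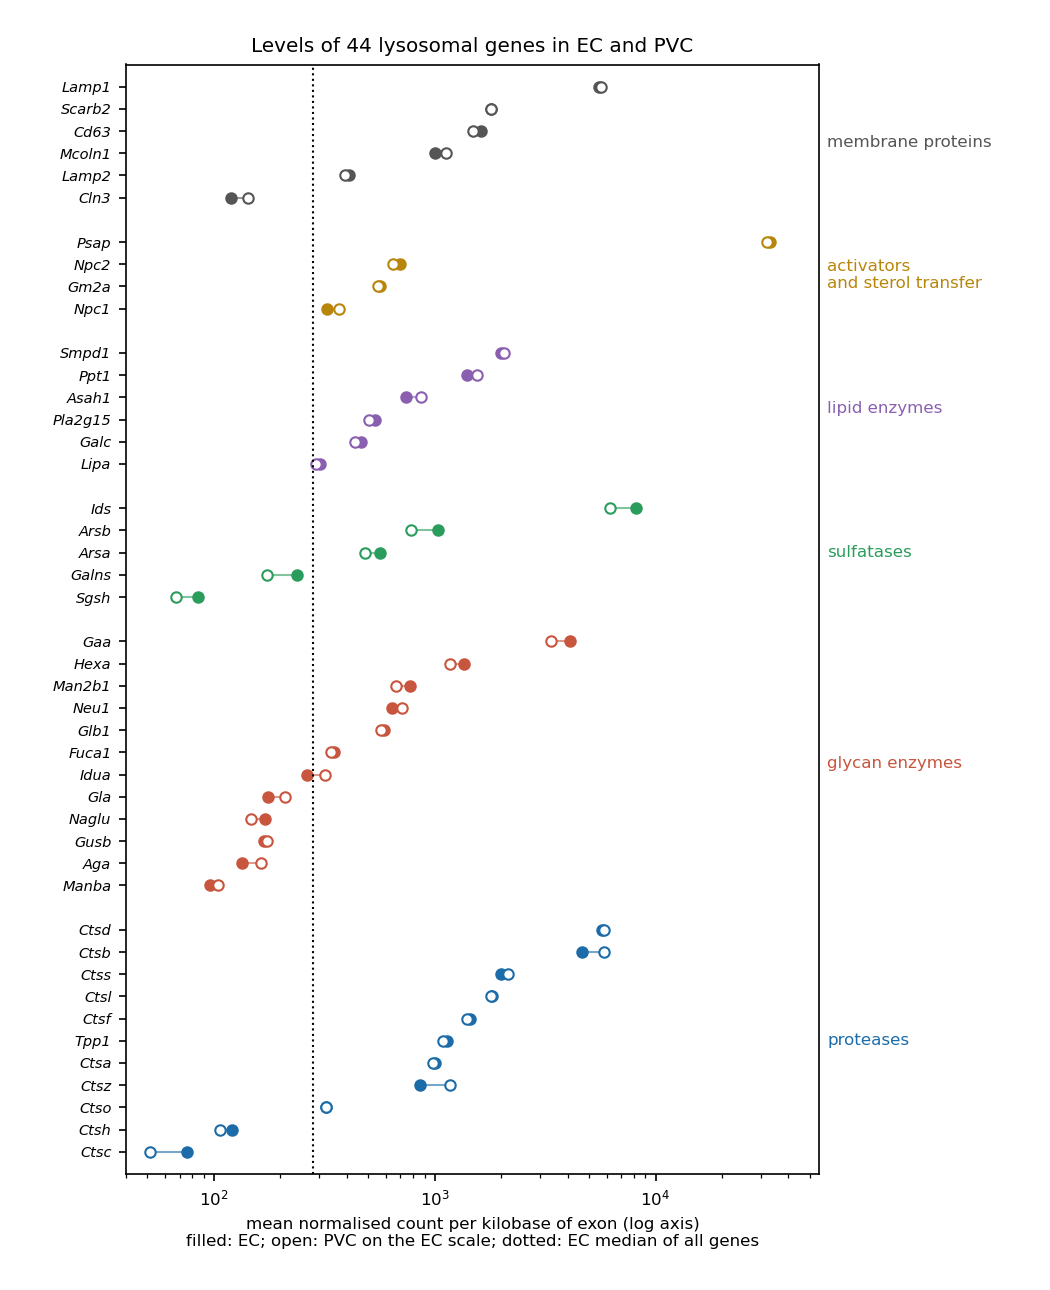
Mean normalised counts per kilobase of exon of the 44 lysosomal genes in the EC (filled) and the PVC (open, multiplied by the median ratio of 1.87), by role, on a log axis, with the EC median of all genes as a dotted line. *Psap* stands at the far right of both regions, and *Ctsc*, *Sgsh* and *Manba* at the far left.

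The order of the genes was close to the same in both regions. Over the 44 genes Spearman's rho between their levels per kilobase in the EC and the PVC was 0.994, a correlation across genes in 2 pooled means that share mice, length and annotation. No gene shifted by more than 4 places in the order, and 2 shifted by more than 2, *Ctsz* and *Arsb*.

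The comparison of regions addresses how the EC, which is affected early in Alzheimer's disease, differed from the PVC, which is spared for longer. For this the PVC means were multiplied by 1.87, so that the median log2 ratio of EC to PVC over the 16456 genes past the minimum was 0, and a gene was counted as higher or lower in the EC where the larger value exceeded the smaller by 25% or more, a rule of size and not a test. Most of the lysosomal genes differed little between the regions on this scale. The median log2 ratio of the 44 genes was 0.04, and 18 of them lay within 0.1 of 0. Their median distance from 0 was 0.14 on the log2 scale, beside 0.16 over all genes and 0.14 over the genes with a mean of at least 100. Counted as higher in the EC were 4 of the 44 genes (9.09%), beside 16.3% of all 16456 genes, and as lower 2 (4.55%), beside 11.1%. Among the 12808 genes with a mean of at least 100, which all of the 44 reach, 11.3% were counted as higher and 10.2% as lower. These shares are close to each other for so few genes, and nothing is read from their difference.

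*Ctsc* had the largest ratio toward the EC. Its deposited mean was 439 in the EC against 160.4 in the PVC, which is 299.5 on the EC scale, a log2 ratio of 0.55 or 1.46-fold, and 91.0% of all genes had a lower ratio. *Ctsc* lies on chromosome 7 from 95426595 to 95459398 (NCBIM37, + strand). The other 3 genes counted as higher were all sulfatases. *Galns*, which removes sulfate from keratan sulfate and chondroitin sulfate, had a mean of 593 in the EC against 233 in the PVC (436 on the EC scale), a log2 ratio of 0.44. *Arsb*, which removes sulfate from dermatan and chondroitin sulfate, had 4444 and 1793 (3349 on the EC scale), a log2 ratio of 0.41. *Ids* had 41627 and 16989 (31729 on the EC scale), a log2 ratio of 0.39, and made up 14.7% of the normalised counts of the 44 genes in the EC, against 11.7% in the PVC. *Galns* lies on chromosome 8 from 125102138 to 125135304 (- strand), *Arsb* on chromosome 13 from 94541634 to 94712971 (+ strand) and *Ids* on the X chromosome from 67596244 to 67618260 (- strand).

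The remaining sulfatases stood on the same side. *Sgsh* lay just outside the rule, with a mean of 372 in the EC against 159.9 in the PVC and a log2 ratio of 0.318 against a threshold of 0.322, and it passed under the scaling to equal totals and with a minimum mean of 100, where 5 genes were counted as higher. *Arsa* had 2078 and 948 and a log2 ratio of 0.23. All 5 sulfatases of the list had a ratio above 0, from 0.23 to 0.44 with a median of 0.39. Another scaling moves every ratio by the same amount, at most 0.03 here, so it could not have changed this side. *Sumf1*, which makes the catalytic residue that every sulfatase needs, had a log2 ratio of 0.13. The exons of *Arsb* shared 45.3% of their bases with a long non-coding gene (*Gm17447*), those of *Sgsh* 21.6% with *Card14* and those of *Arsa* 18.8% with *C230037L18Rik*, on either strand. The library kit does not mark strand, so the gene that reads from such overlaps came from cannot be told. By the paper's account only protein coding genes were counted, and *C230037L18Rik*, like *Gm17447*, is annotated as non-coding. *Ids* and *Galns* overlapped no other annotated gene.

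Heparan sulfate is taken apart by enzymes that act in turn, and they did not move together. Beside *Ids* at 0.39 and *Sgsh* at 0.32, the glucosaminidase *Naglu* had a log2 ratio of 0.21, the iduronidase *Idua* -0.27, the glucuronidase *Gusb* -0.04 and, outside the list, the acetyltransferase *Hgsnat* -0.15. *Idua* had a mean of 1111 in the EC against 717 in the PVC.

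The 2 genes counted as lower in the EC were both cysteine proteases. *Ctsz*, a carboxypeptidase, had a mean of 1242 in the EC against 904 in the PVC (1688 on the EC scale), a log2 ratio of -0.44, and 7.63% of all genes had a lower ratio. *Ctsb* had 21989 and 14854 (27742 on the EC scale), a log2 ratio of -0.34. It made up 7.78% of the normalised counts of the 44 genes in the EC, against 10.2% in the PVC. *Ctsz* lies on chromosome 2 from 174252994 to 174264540 (- strand) and *Ctsb* on chromosome 14 from 63741302 to 63764758 (+ strand), and 16.2% of the exon bases of *Ctsb* are shared with *Fdft1*. *Ctsb* was only just inside the rule and fell outside it under the scaling to equal totals and with a minimum mean of 100. Just outside the rule in this direction were *Aga*, which cleaves the bond between asparagine and glycan, at -0.28, *Idua* at -0.27, *Gla* at -0.26, *Cln3* at -0.25 and *Asah1* at -0.23.

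The proteases had the widest range of ratios of the role groups, from -0.44 in *Ctsz* to 0.55 in *Ctsc*, with a median of 0.02. Apart from these and *Ctsb*, they lay between -0.11 in *Ctss* and 0.19 in *Ctsh*. *Ctsd* had a mean of 14365 in the EC against 7885 in the PVC and a log2 ratio of -0.04, *Ctsl* one of 0.03, *Ctsa* 0.02, *Ctsf* 0.05, *Tpp1* 0.06 and *Ctso* -0.01. No glycan enzyme passed the rule. *Gaa* had the largest ratio among them, with 19613 in the EC against 8650.3 in the PVC and a log2 ratio of 0.28, followed by *Naglu*, *Hexa* and *Man2b1* between 0.20 and 0.21. *Aga* was lowest, with 170.5 in the EC against 111 in the PVC, and the group was split with 6 genes above and 6 below 0.

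**Figure D3:**
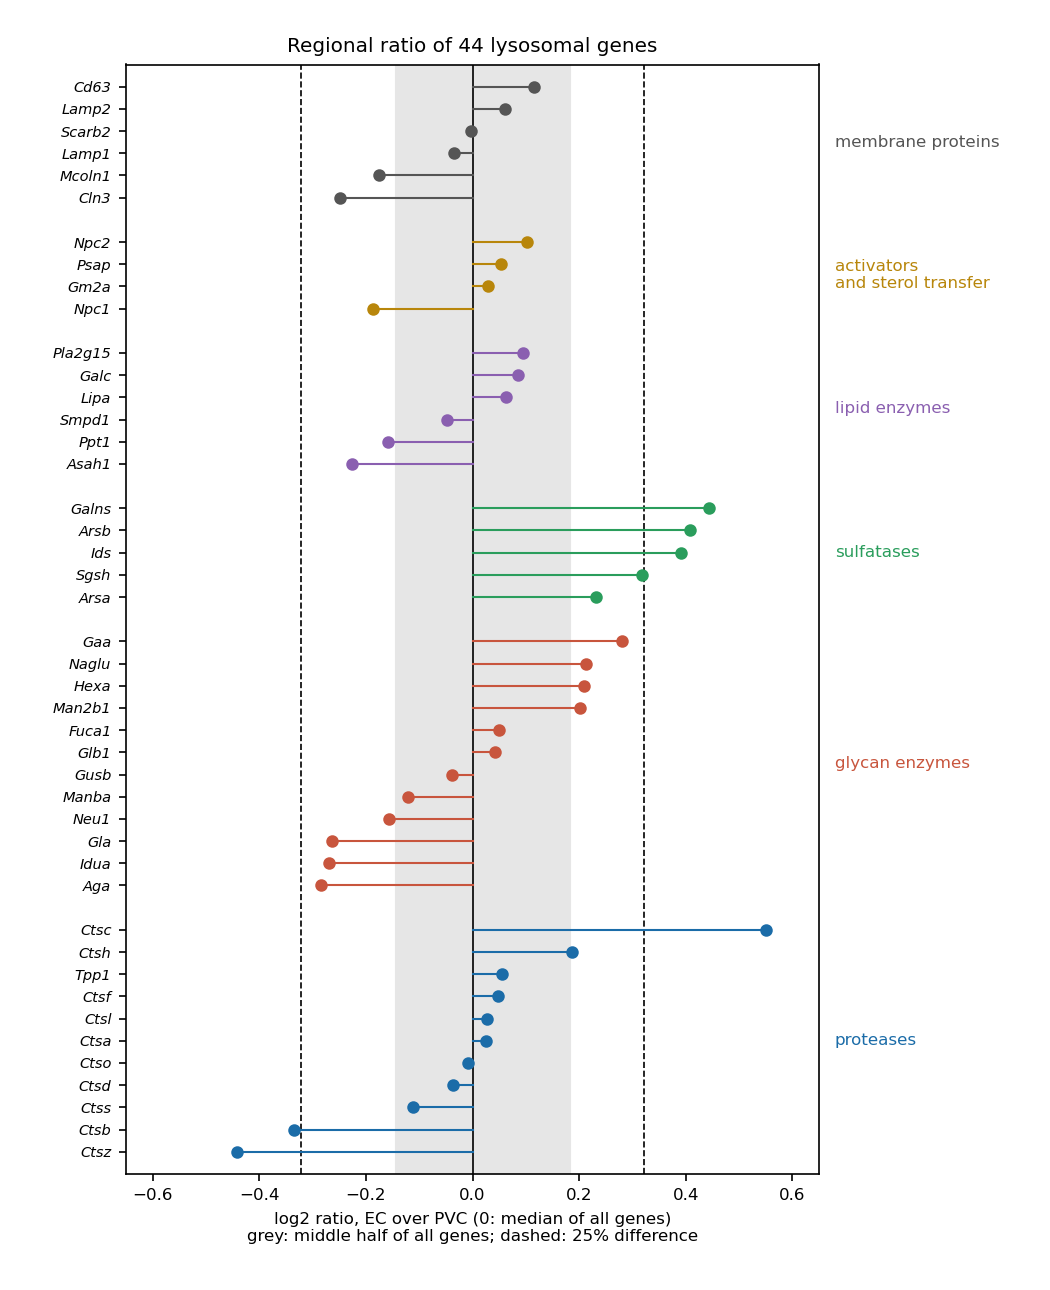
Log2 ratio of EC to PVC for the 44 lysosomal genes by role, set to 0 at the median of all genes, with the middle 50% of all genes in grey and the rule of a 25% difference as dashed lines. *Ctsc* and 3 sulfatases lie beyond the rule on the EC side, *Ctsz* and *Ctsb* on the PVC side.

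No lipid enzyme, activator, sterol carrier or membrane protein passed the rule. The lipid enzymes ran from -0.23 in *Asah1* to 0.10 in *Pla2g15*, with *Ppt1* at -0.16, *Smpd1* at -0.05, *Lipa* at 0.06 and *Galc* at 0.09. *Psap* had a mean of 90417 in the EC against 46633 in the PVC and a log2 ratio of 0.05, close to *Gm2a* at 0.03. *Npc2* hands cholesterol to *Npc1* in the membrane, and their log2 ratios were 0.10 and -0.19. Among the membrane proteins *Lamp1* and *Lamp2* stood at -0.04 and 0.06 (means of *Lamp1* 12455 in the EC against 6833 in the PVC), *Scarb2* at -0.003, *Cd63* at 0.11, *Mcoln1* at -0.18 and *Cln3* at -0.25. The 13 genes with an E-box had a median log2 ratio of 0.03 and the 25 with a window and no E-box one of 0.05.

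None of the other genes of the lysosome looked at here passed the rule. Of 25 further lysosomal genes 20 were in the tables, with a median log2 ratio of 0.001 and a range from -0.30 in *Tmem192* to 0.31 in *Cd68*, 10 on each side of 0. Their ratios spread less than those of the 44 genes. The lower and upper quartiles were -0.04 and 0.08 for the further genes, against -0.13 and 0.13 for the 44. The 13 genes of delivery, among them the mannose 6-phosphate receptors *M6pr* (-0.07) and *Igf2r* (0.25) and the phosphotransferase subunit *Gnptab* (0.12), had a median of -0.04. The 17 genes of the V-ATPase, the proton pump that acidifies the lysosome, lay between -0.14 in *Atp6v1g1* and 0.16 in *Atp6v1a* with a median of -0.01. *Mitf*, a relative of *Tfeb*, had a log2 ratio of 0.08.

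Some marker lists differed more between the regions than the lysosomal genes and others did not. All 8 markers of oligodendrocytes were lower in the EC, with a median log2 ratio of -1.45 and a range from -1.64 in *Mobp* to -1.0 in *Cnp*, while *Galc* and *Arsa*, which degrade myelin lipids, had 0.09 and 0.23. All 6 markers of the meninges were higher in the EC, with a median of 1.03 and the highest ratio, 3.06, in *Dcn*. Markers of the hippocampus, which borders the EC, were higher in 3 of 4, with 2.12 in *Fibcd1*, and both markers of layer 4 of sensory cortex were lower in the EC, -1.23 in *Rorb* and -0.36 in *Scnn1a*. Of 8 neuronal markers 4 were lower in the EC, the lowest being *Nefm* at -1.14, and the vesicular glutamate transporter *Slc17a7* had 0.13. Of the 8 astrocyte markers 2 were higher, *Gfap* at 0.61 and *Aqp4* at 0.53, and *Aldh1l1* was lower at -0.36. *Ttr*, a marker of the choroid plexus, had -2.19, and the other 3 past the minimum lay between -0.16 and 0.01. The 7 endothelial markers lay between -0.16 and 0.27 with none past the rule. The 13 microglial markers lay between -0.14 in *Trem2* and 0.14 in *Fcrls*, with a median of 0.03 and none past the rule. *Ctsc*, *Ctss* and *Ctsz*, some of the cathepsins known from microglia, had 0.55, -0.11 and -0.44. The other cathepsins of the list lay between -0.34 in *Ctsb* and 0.19 in *Ctsh*. In bulk tissue fewer cells of a type and less RNA per cell cannot be told apart, and the part of any of these cell types in the ratios of the lysosomal genes was not tested.

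**Figure D4:**
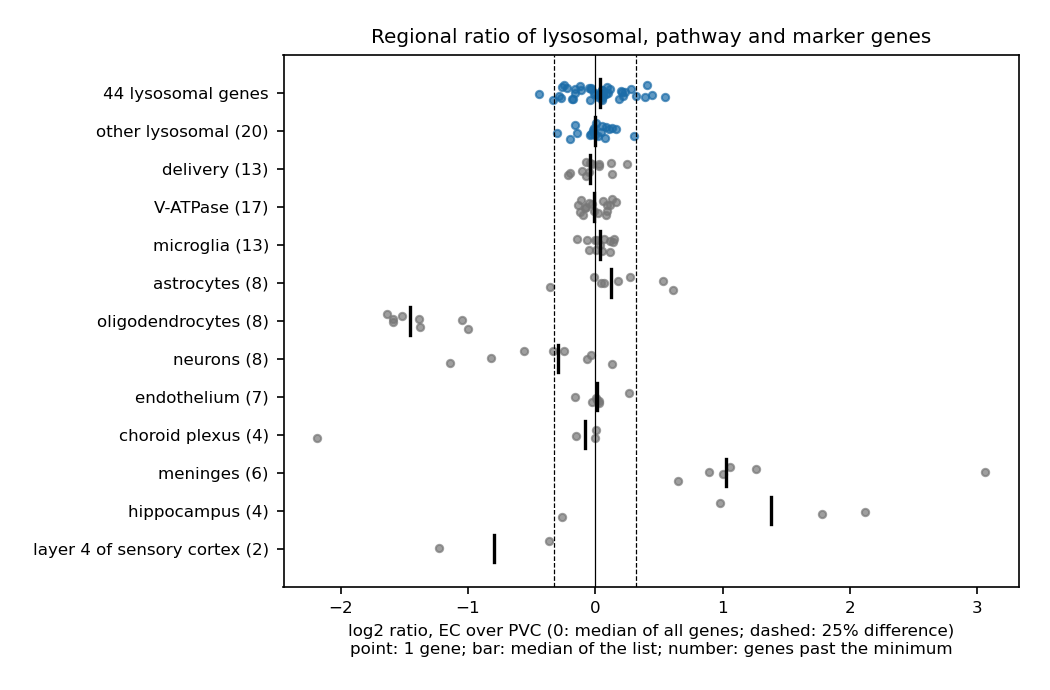
Log2 ratio of EC to PVC, set to 0 at the median of all genes, for the 44 lysosomal genes, the further pathway lists and the marker lists, with 1 point per gene, a bar at each median and dashed lines at a 25% difference. The lysosomal, delivery and V-ATPase genes lie near 0, the oligodendrocyte markers far to the left and most meningeal and hippocampal markers to the right.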

How the data were processed

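RNA-sequencing of 58 libraries was analysed, 29 from the EC and 29 from the PVC. The authors aligned reads to mm9 with TopHat 2.0.6 and Bowtie 2.0.2.0. They counted reads over NCBIM37 genes with HT-SEQ, by the paper's account protein coding genes only, and ran DESeq2 1.10.1 within each region. The authors deposited 1 table per region, with a mean signal per gene that they made by dividing counts by size factors and averaging all 29 libraries. The tables also hold the authors' log2 fold changes of *APOE3/4* against *APOE3/3*, with standard errors, Wald statistics and *p*-values before and after adjustment, which were not used. No values of single mice were analysed, so there is no spread, depth per library or test, and *p*-values are not given. The means summed to 49385488 in the EC against 27058393 in the PVC.

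Lengths were the union of exons in GENCODE vM1, matched by symbol for 96.1% of the 16456 genes with a mean of the regional means of at least 10, and for all 44 lysosomal genes. The PVC means were multiplied by the median ratio, and a difference of 25% was the rule of size. The ratio step was run on simulated data with planted changes well beyond the 25% rule and little noise. Such data cannot show how calls near the rule behave, nor the spread between mice. Tables were handled with pandas 2.3.3 and numpy 2.4.6 in Python 3.11.15, correlations used scipy 1.17.1 and plots matplotlib 3.10.9. Alternatives were other scalings, minimum means, lengths, a fold of 1.5 and a longer motif. All 44 genes are named, with fuller values for the highest and lowest levels overall and by role and for genes past or next to the rule of size. Genes and lists were chosen with earlier results of these data known, and the sequences shown, the order of heparan sulfate enzymes and the pairs of partner genes were chosen after values were seen.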

Additional observations from a re-analysis of the deposited data

How the results depend on the processing

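The direction and size of the values for the lysosomal genes depended little on the scaling. Scaling to equal totals moved every log2 ratio by 0.03 and the trimmed mean by -0.003, so signs of ratios closer to 0 than this were not read. With a fold of 1.5 no lysosomal gene was counted, 0 as higher and 0 as lower in the EC. The count of lower genes was 1 with equal totals and 1 with a minimum mean of 100, since both settings raise the ratios and *Ctsb* lies next to the rule. A change of the minimum also set the median ratio to 0 again, over the genes that passed. Over all genes a minimum of 100 then gave 1556 higher and 1219 lower, and no minimum 5867 and 4408. Without the new zero point, the genes with a mean of at least 100 gave 1442 and 1308, the counts behind the shares given above. A fold of 1.5 gave 1379 and 879. The longer motif lowered the share of lysosomal genes with a match to 13.2%, and that of measured genes to 1.99%. Levels per length of the longest transcript in place of all exons stayed within the limit used for all 4 summaries compared. No paired analysis was possible because only means over all mice of a region were used. Leaving out a replicate could not be done for the same reason. The limit on every ratio is that pooled means carry no error, so a difference of 25% may lie within the spread between mice.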

Other observations

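In the V-ATPase, the catalytic subunit gene *Atp6v1a* had a mean of 32168 in the EC against 15396 in the PVC, a log2 ratio of 0.16, and *Atp6v1b2*, its partner in the ring, had 0.13. *Atp6v0a1*, the large membrane subunit enriched in neurons, had 0.12, and the proteolipid gene *Atp6v0c* had 0.06. The other genes of the membrane sector lay on both sides of 0, with *Atp6v0e2* at 0.09, *Atp6v0d1* at -0.01, *Atp6v0b* at -0.05 and *Atp6v0e* at -0.12. Among the stalk and connecting genes *Atp6v1e1*, *Atp6v1g1* and *Atp6v1g2* had -0.11, -0.14 and -0.09. *Atp6v1d* and *Atp6v1f* both had -0.08, *Atp6v1h* had -0.03 and *Atp6v1c1* had 0.02. In the delivery group the 6 subunits of the HOPS tether, grouped here after their values were seen, were all below 0 when the median ratio was set to 0, from -0.21 in *Vps33a* to -0.03 in *Vps18*. With equal totals, which adds 0.03 to each ratio, *Vps18* lies at the other side of 0.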
